A study of Mus musculus with 25 samples.

Results

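The genes described here take up, trap and store glucose in muscle, and they were examined in RNA of mouse soleus at rest and after treadmill running. They were 10 named genes of the 52636 in the count table: the glucose transporters Slc2a4 and Slc2a1, the hexokinases Hk2 and Hk1, the glycolytic regulator Pfkfb3, the glycogen genes Gys1, Ppp1r3c, Ppp1r3b and Pygm, and Txnip, which acts against glucose uptake. The list groups genes by function and was chosen with earlier results of these data known, so that its counts are a description. Each of its 10 genes was counted in all libraries and kept by the filter on low counts. One library was made per mouse from whole soleus of 25 C57BL/6 mice of 12 weeks, 12 female and 13 male. All mice carried floxed Dnmt3a alleles. The WT mice had no Cre, and the mD3AKO mice also carried Cre under the muscle creatine kinase promoter, which is active late in the making of muscle fibres and in heart. DNMT3A, the enzyme lost in their muscle fibres, places new methyl groups on DNA. Cell types in which this promoter is not active would keep the gene, and Dnmt3a was not measured by cell type here. Muscle was taken at rest from 5 WT and 7 mD3AKO mice, which had spent 30 minutes in a sham treadmill arena. From 7 WT and 6 mD3AKO mice it was taken 60 minutes after 30 minutes on a treadmill at 16 m/min and 5% incline. The design asks whether loss of DNMT3A alters the transcripts of resting muscle or their response to exercise.

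Contracting muscle moves the transporter GLUT4 from vesicles to the fibre surface, hexokinase then traps glucose as glucose 6-phosphate, and the fibre burns this sugar or stores it as glycogen. Glycogen is built by glycogen synthase and cleaved by glycogen phosphorylase, and targeting subunits bring protein phosphatase 1 to the glycogen particle, where it activates the synthase. During exercise glycogen is broken down, and in the hours afterwards glucose uptake stays raised while the store is refilled. The soleus is a postural muscle rich in slow, oxidative fibres.

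The libraries held 22671457 to 37431801 counts (median 32189360). Dnmt3a was at 93.4 to 131 CPM (counts per 1000000, of library sizes adjusted by TMM normalization) in the 12 WT mice and at 34.5 to 53.9 CPM in the 13 mD3AKO mice, without overlap. The library of mouse 15, a male mD3AKO mouse at rest, stood apart, because ribosomal RNA genes took up 39.6% of its counts and 7.95% to 13.1% of those of every other library. Results were therefore repeated without it. The 6 muscle fibre markers, among them the slow myosin gene Myh7 and the fast myosin gene Myh2, summed to between 56726 and 76667 CPM in all libraries, and no marker of any other cell type examined was at 0 throughout. In whole muscle, fewer cells of a type and less RNA per cell cannot be told apart.

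Levels were first compared between genes as CPM per kilobase of exon, averaged over all 25 libraries. Pygm, which encodes the muscle glycogen phosphorylase, was the most abundant at 602 ± 82.6 CPM per kilobase (SD, n = 25) and lay above each other gene in every library. Txnip followed at 168 ± 53.3, Slc2a4 at 146 ± 13.5, Ppp1r3c at 129 ± 35.5, Gys1 at 105 ± 10.9 and Hk2 at 95.8 ± 20.5 CPM per kilobase. These 5 genes formed 1 band, since the ranges of neighbours overlapped and each neighbour was the higher in only 15 to 19 of the 25 libraries. After a gap came Slc2a1 at 4.76 ± 1.36, Pfkfb3 at 2.23 ± 0.758 and Hk1 at 1.88 ± 0.256 CPM per kilobase. Slc2a1 exceeded Pfkfb3 in 24 of 25 libraries, but Pfkfb3 exceeded Hk1 in only 15. Ppp1r3b was lowest in every library, at 0.327 ± 0.133 CPM per kilobase.

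Within each pair of related genes, 1 member carried nearly all of the transcript. Per kilobase, Hk2 was 50.8 times as abundant as Hk1 (26.2 to 77.5 times in single libraries), and Slc2a4 was 30.6 times as abundant as Slc2a1 (13.4 to 49.9 times). Of the targeting subunits of phosphatase 1, Ppp1r3c was 395 times as abundant as Ppp1r3b (163 to 1031 times). The less abundant gene of each pair is thus a small part of the pool, and its counts are correspondingly few. Ppp1r3b rested on 31 to 153 counts per library, Slc2a1 on 197 to 946, Hk1 on 186 to 790 and Pfkfb3 on 152 to 1083. The other 6 genes had at least 3771 counts in every library. Whether reads were counted by strand is not given in the sources used here. On the opposite strand, Gm15441 shares 606 exon bases with Txnip (19.4%) and held 365 counts in all libraries together, and Ruvbl2 shares 310 with Gys1 (6.47%), so that reads of these stretches may not be told apart.

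**Figure D1:**
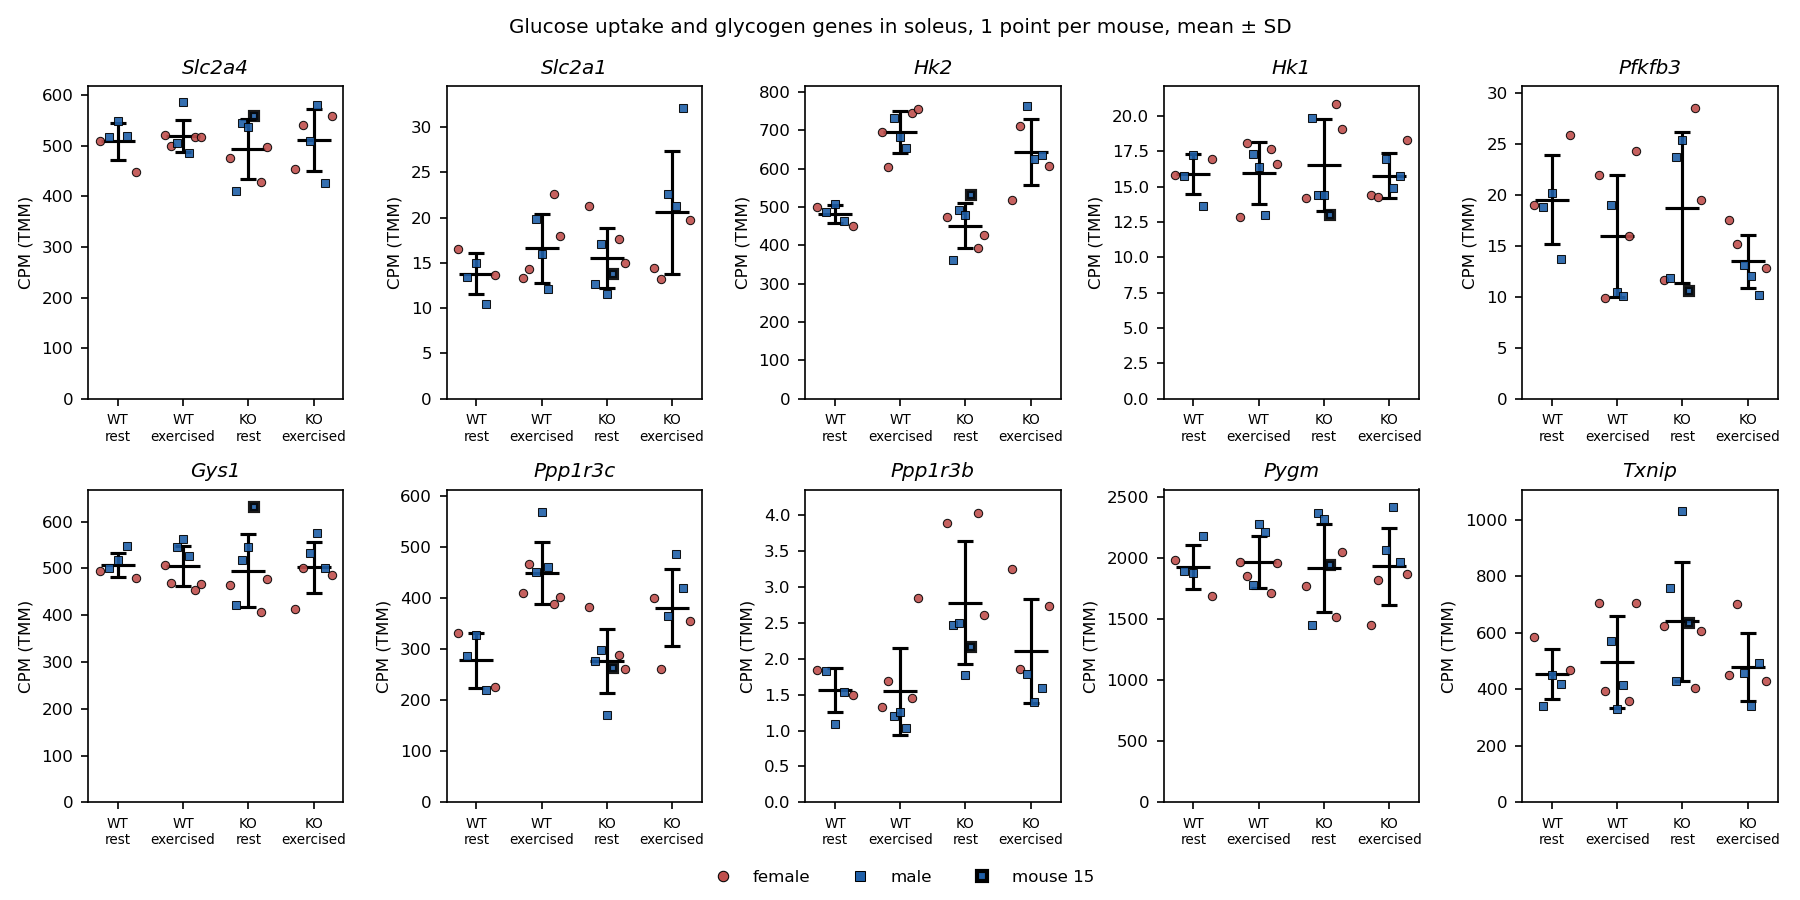
Level of each of the 10 genes in CPM (TMM-adjusted, linear axis from 0) in WT and mD3AKO (KO) soleus at rest and 60 minutes after exercise. Each point is 1 mouse (circles female, squares male, thick outline mouse 15), and bars are the mean ± SD. Rested and exercised WT mice do not overlap for Hk2 and Ppp1r3c, while in KO mice the ranges of both genes overlap, and Ppp1r3b overlaps between the genotypes.

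Exercise was followed by more Hk2 and Ppp1r3c transcript, and by no called change in the other 8 genes. Thus 2 of the 10 genes passed an adjusted p of 0.05 in edgeR's quasi-likelihood test, both higher after exercise, while 10.4% of the 16340 genes tested passed, 5.7% higher and 4.69% lower. The median log2 fold change was 0.013 over the 10 genes and -0.00088 over all genes tested. Both called genes act on the path from imported glucose to glycogen, in the trapping of glucose and in the control of glycogen synthase. From mouse to mouse within groups, the correlation of Hk2 and Ppp1r3c was r = -0.16 over 25 libraries. Some markers of other cell types were called for exercise too. Of 5 endothelial markers 3 fell, of 5 adipocyte markers 1 rose (Pck1, 1.41 on the log2 scale) and of 3 neutrophil markers tested 1 fell (S100a9, -1.28). The adipocyte markers summed to 11.4 to 220 CPM at rest and 20.0 to 296 CPM after exercise, and the neutrophil markers to at most 2.501 CPM in any library. Their part in the values of the 10 genes was not tested.

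Hk2 encodes hexokinase 2, the main glucose-trapping enzyme of muscle, and lies at chr6:82725025-82774454 on the minus strand of mm10. In WT mice at rest its level was 499, 487, 507, 463 and 451 CPM, and in WT mice after exercise it ran from 604 to 756 CPM (median 695). The lowest exercised WT mouse stood above the highest rested one, which was so for 2.06% of all genes tested. In mD3AKO mice Hk2 ran from 363 to 532 CPM (median 473) at rest and from 518 to 764 CPM (median 630) after exercise. Here 5 of 6 exercised mice lay above all rested ones. The exception overlapped only with mouse 15, the highest rested mouse. Exercise changed it by 0.52 on the log2 scale (SE 0.064, edgeR adjusted p = 1.6e-06), a rise of 1.44-fold, and 0.55 without mouse 15. It was of like size in WT (0.53, SE 0.093) and in mD3AKO mice (0.51, SE 0.087), and the difference between the genotypes was -0.02 with a 95% interval of -0.28 to 0.24. In males alone the value was 0.51 and in females alone 0.53, both called. Hk1, the hexokinase most tissues share, had a log2 fold change of -0.03 (95% interval -0.20 to 0.13).

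Ppp1r3c encodes PTG, a targeting subunit that brings phosphatase 1 to glycogen, and lies at chr19:36731737-36736653 on the minus strand. In WT mice at rest it measured 333, 286, 328, 219 and 226 CPM, and after exercise 388 to 569 CPM (median 451). Again the rested and exercised WT mice did not overlap. In mD3AKO mice it ran from 171 to 383 CPM (median 277) at rest and from 261 to 487 CPM (median 383) after exercise, and these ranges overlapped broadly. Over both genotypes its log2 fold change was 0.57 (SE 0.108, edgeR adjusted p = 0.000495), a rise of 1.49-fold, with 10 of 13 exercised mice above all rested ones. Mouse 15 made little difference to it (0.57 without that mouse). The gene rose in WT (0.69, SE 0.157, edgeR adjusted p = 0.00931), and in mD3AKO mice its value was 0.46 (SE 0.147, edgeR adjusted p = 0.0644). The difference between these responses was -0.23 (95% interval -0.67 to 0.21) and was not called. Leaving out 1 mouse moved it from -0.32 (without mouse 12) to -0.13 (without mouse 2). The value was 0.78 in males alone and 0.34 in females alone (edgeR adjusted p = 0.327), with a test of the difference between the sexes of 0.44 (SE 0.203, unadjusted p = 0.0425, edgeR adjusted p = 1.00). So 2 of the 10 genes were called in WT, against 3.59% of all genes, and Hk2 alone in mD3AKO mice, against 6.02%.

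Because Hk2 and Ppp1r3c are the genes that rose with exercise, their start regions are shown, 250 bases before and 50 after the start of the transcript. They were read from RefSeq promoters on GRCm38.p6, where 8 of the 10 genes matched an entry. The capitals in Hk2, at chr6:82774405-82774704 (minus strand), mark its only copy of the core of the cyclic AMP response element (TGACG on either strand), which begins at -50. The capitals in Ppp1r3c, at chr19:36736555-36736854 (minus strand), mark its only E-box (CACGTG), which begins at -104.
Hk2: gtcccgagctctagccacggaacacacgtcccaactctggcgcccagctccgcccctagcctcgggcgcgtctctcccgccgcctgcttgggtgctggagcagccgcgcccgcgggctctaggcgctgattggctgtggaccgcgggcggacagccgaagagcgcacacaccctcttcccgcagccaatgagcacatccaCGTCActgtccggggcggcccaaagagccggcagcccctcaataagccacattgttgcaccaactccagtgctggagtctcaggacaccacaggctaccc
Ppp1r3c: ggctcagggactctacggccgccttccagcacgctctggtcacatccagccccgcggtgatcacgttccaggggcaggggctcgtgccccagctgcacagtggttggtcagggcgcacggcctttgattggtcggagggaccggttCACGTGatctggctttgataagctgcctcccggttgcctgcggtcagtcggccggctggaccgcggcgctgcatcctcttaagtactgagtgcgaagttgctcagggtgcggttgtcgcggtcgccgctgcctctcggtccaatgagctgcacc
Of all 32851 promoters of this length, 20.8% hold the core and 7.15% the E-box. The full element (TGACGTCA) is in 1.79% of promoters and in none of the 8 genes with an entry. The core is part of the full element. Among the 8 genes both the core and the E-box are also found in Pfkfb3, which was not called. CCAAT boxes (CCAAT on either strand) are in 37.4% of promoters and in 5 of the 8 genes, namely Hk2, Ppp1r3c and the uncalled Txnip, Slc2a1 and Gys1. These are matches of letters in a fixed window only.

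The transporters were not called. Slc2a4, which encodes GLUT4, measured 509, 516, 547, 519 and 448 CPM in WT mice at rest and 485 to 585 CPM (median 517) after exercise. It ran in mD3AKO mice from 411 to 559 CPM (median 497) at rest and from 425 to 580 CPM (median 524) after exercise. All 4 groups covered much the same range. The log2 fold change with exercise was 0.04, with a narrow 95% interval of -0.08 to 0.16. Slc2a1, which encodes the widely expressed transporter GLUT1, measured 16.5, 13.4, 15.0, 10.5 and 13.6 CPM in WT mice at rest and 12.1 to 22.6 CPM (median 16.0) after exercise. The mD3AKO mice measured 11.6 to 21.2 CPM (median 14.9) at rest and 13.2 to 32.1 CPM (median 20.5) after exercise. The highest value was that of an exercised mD3AKO mouse, and the groups overlapped widely. Its log2 fold change was 0.33 (SE 0.131, edgeR adjusted p = 0.114).

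For Slc2a1 the values were also given by sex. In males the rested mice measured 10.5 to 17.1 CPM (median 13.4, n = 7) and the exercised mice 12.1 to 32.1 CPM (median 20.6, n = 6). The 3 exercised mD3AKO males, at 22.6, 21.3 and 32.1 CPM, were above all other males. In females the rested mice measured 16.5, 13.6, 21.2, 17.6 and 14.9 CPM, and the exercised mice 13.2 to 22.6 CPM (median 14.5, n = 7), with full overlap. Males alone gave a log2 fold change of 0.58 (SE 0.144, edgeR adjusted p = 0.0288) and females alone one of -0.0047 (SE 0.154). The test of the difference between the sexes gave 0.59 (SE 0.222, unadjusted p = 0.0148, edgeR adjusted p = 1.00) and was not called. For this difference edgeR called 0 of the 10 genes, with 2 at an unadjusted p under 0.05, and DESeq2 and limma with voom called 0. Of all genes 0.0551% were called, and 3.34% had an unadjusted p under 0.05. GLUT1 is also a transporter of endothelium, and markers of that cell type moved the other way with exercise. The sum of 5 of them ran from 354 to 477 CPM at rest and from 299 to 399 CPM after exercise, and 3 of the 5 fell, namely Kdr (-0.58), Tek (-0.35) and Cdh5 (-0.23 on the log2 scale). For the difference between the sexes the median of the endothelial markers was 0.0075. That of 5 Schwann cell markers was 1.45, the direction of Slc2a1, with 2 of 5 at an unadjusted p under 0.05 and edgeR adjusted p = 1.00 for each. The part of both lists in the Slc2a1 values was not tested.

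Pfkfb3 encodes an enzyme that makes fructose 2,6-bisphosphate, an activator of glycolysis. In WT mice at rest it measured 19.0, 18.8, 20.2, 13.8 and 25.9 CPM, and after exercise 9.90 to 24.3 CPM (median 16.0). Among mD3AKO mice it ran from 10.6 to 28.6 CPM (median 19.5) at rest and from 10.1 to 17.6 CPM (median 13.0) after exercise. Values were scattered in all groups. Its log2 fold change of -0.39 (SE 0.175, unadjusted p = 0.0365, edgeR adjusted p = 0.19) was not called.

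The glycogen enzymes themselves were steady. Gys1, the muscle glycogen synthase, measured 494, 500.2, 517, 548 and 480 CPM in WT mice at rest and 454 to 562 CPM (median 508) after exercise. In mD3AKO mice it was at 406 to 632 CPM (median 478) at rest, the highest being mouse 15, and at 413 to 576 CPM (median 502) after exercise. Exercised and rested mice overlapped throughout, and the log2 fold change was 0.0054 (95% interval -0.13 to 0.14). Pygm measured 1985, 1897, 1877, 2184 and 1689 CPM in WT mice at rest and 1718 to 2285 CPM (median 1959) after exercise. The mD3AKO mice lay between 1451 and 2373 CPM (median 1947) at rest and between 1452 and 2417 CPM (median 1920) after exercise. Its log2 fold change was 0.02 (95% interval -0.15 to 0.20). For both enzymes the intervals leave room only for changes well below that of Hk2.

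Txnip encodes an arrestin-like protein that promotes the internalisation of glucose transporters and whose transcript is known to follow glucose. It measured 586, 342, 451, 419 and 467 CPM in WT mice at rest and 332 to 706 CPM (median 414) after exercise. Values in mD3AKO mice ran from 404 to 1029 CPM (median 622) at rest and from 342 to 701 CPM (median 455) after exercise. Mice of each group differed by up to 2.54-fold. The log2 fold change with exercise was 0.13 in WT and -0.42 in mD3AKO mice, neither called, and the difference of these responses was -0.55 (SE 0.307, unadjusted p = 0.0854, edgeR adjusted p = 1.00). That difference was -0.84 (SE 0.371) in males alone and -0.08 (SE 0.419) in females alone, and whether the sexes differ in it was not tested.

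**Figure D2:**
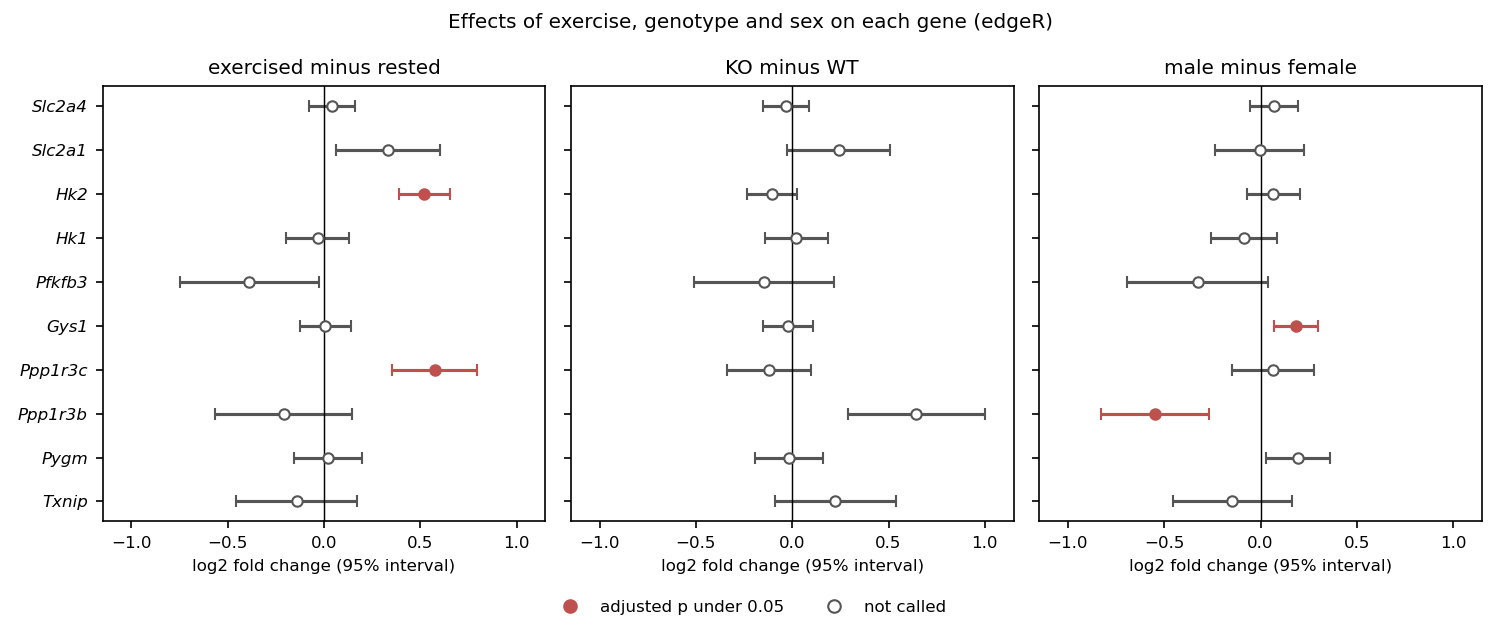
Log2 fold changes of the 10 genes with exercise, genotype and sex (x axes), with 95% intervals from edgeR. Filled red points passed an adjusted p of 0.05: Hk2 and Ppp1r3c for exercise, none for genotype, and Gys1 and Ppp1r3b for sex.

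In edgeR with 1 mean per group, loss of DNMT3A was followed by no called change in any of the 10 genes. In edgeR's test 0 of 10 passed for genotype, against 0.269% of all genes tested, and 1 of 10 had an unadjusted p under 0.05, against 6.23%. DESeq2 called 1 of the 10, Ppp1r3b, against 0.496% of all genes, and limma with voom called none, against 0.257%. For the 2 genes that rose with exercise the genotype values were -0.10 (Hk2, 95% interval -0.23 to 0.03) and -0.12 (Ppp1r3c, -0.34 to 0.10). For Slc2a4, Gys1, Pygm and Hk1 the intervals ran from -0.19 at the lowest to 0.18 at the highest, so larger differences in either direction are outside them.

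Ppp1r3b stood nearest to a call. It encodes the targeting subunit known from liver, lies at chr8:35375739-35388139 on the plus strand, and was the least abundant of the 10. In WT mice at rest it measured 1.85, 1.83, 1.09, 1.54 and 1.502 CPM, and in WT mice after exercise 1.03 to 2.85 CPM (median 1.32). In mD3AKO mice it was at 1.77 to 4.04 CPM (median 2.502) at rest and at 1.40 to 3.26 CPM (median 1.82) after exercise. At rest all but 1 mD3AKO mouse exceeded the highest WT mouse, and after exercise a single WT mouse, mouse 25, lay among the highest mD3AKO values. Its genotype difference was 0.64 on the log2 scale (SE 0.173, 95% interval 0.29 to 1.00, unadjusted p = 0.00101, edgeR adjusted p = 0.168), which is 1.56-fold. By p it ranked 98 of 16340 genes. It was called with DESeq2 (0.65, adjusted p = 0.0442) and in edgeR with sex as a term (0.63, adjusted p = 0.0211). In edgeR with blocks of mouse numbers it was called too (0.64, adjusted p = 0.0215). These blocks (mice 1 to 6, 7 to 19 and 20 to 25) each held 1 sex, so this term also carries sex. Of 25 edgeR repeats that left out 1 mouse, only that without mouse 25 gave a call (0.75, adjusted p = 0.0292). It was not called with DESeq2 size factors, limma with voom, no TMM, no filter, ribosomal RNA genes left out, or either sex alone. The genotype difference was 0.84 at rest (SE 0.252) and 0.45 after exercise (SE 0.239). Neither was called, and the difference between these 2 values was -0.39 (SE 0.346). Leaving out 1 mouse moved it from -0.56 (without mouse 3) to -0.17 (without mouse 25).

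No gene of the 10 was called for the difference between the genotypes in the response to exercise. In edgeR 0 of 10 passed, 0 at an unadjusted p under 0.05, and DESeq2 and limma with voom also called 0. Over all 16340 genes edgeR called 0 (0%), with 403 at an unadjusted p under 0.05 (2.47%). At rest 0 of the 10 differed between genotypes, with 2 at an unadjusted p under 0.05, against 0.0918% of all genes called and 3.65% at an unadjusted p under 0.05. After exercise 0 differed, with 0 at an unadjusted p under 0.05, against 0.11% and 5.51% of all genes. Txnip was the other gene with an unadjusted p under 0.05 at rest, at 0.50 (SE 0.224, unadjusted p = 0.0354, edgeR adjusted p = 1.00). Of its rested mD3AKO mice the highest, at 1029 CPM, was a male. In rested males the mean of Txnip was 404 CPM in WT and 712 CPM in mD3AKO mice, and in rested females 527 and 544 CPM. Whether the sexes differ in this was not tested.

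Between the sexes 2 of the 10 genes differed, against 8.65% of all genes tested, 5.04% higher and 3.6% lower in males. These contrasts come from a fit with 1 mean for each of the 8 groups of sex, genotype and exercise. Gys1 was higher in males. In the 12 females it ran from 406 to 508 CPM (median 474) and in the 13 males from 421 to 632 CPM (median 534), and 10 males exceeded all females. The log2 fold change, male over female, was 0.18 (SE 0.056, edgeR adjusted p = 0.042) and 0.17 without mouse 15 (edgeR adjusted p = 0.0452). This call was close to the threshold. It was lost in 19 of 25 repeats that left out 1 mouse, with values of 0.16 to 0.21, and without TMM normalization (0.07).

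Ppp1r3b was lower in males. It ran from 1.32 to 4.04 CPM (median 2.24) in females and from 1.03 to 2.502 CPM (median 1.595) in males, and 6 females lay above all males. The log2 fold change was -0.55 (SE 0.135, edgeR adjusted p = 0.0137), and it was called in every repeat without 1 mouse (-0.60 to -0.47). The highest 2 values of the gene, 3.901 and 4.04 CPM, were those of female mD3AKO mice at rest. The genotype difference was 0.52 in males alone (SE 0.151) and 0.79 in females alone (SE 0.225), and neither was called in these smaller sets.

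Pygm, at 1452 to 2048 CPM (median 1841) in females and 1451 to 2417 CPM (median 2067) in males, had a value of 0.20 (SE 0.08, edgeR adjusted p = 0.138). The remaining 7 genes had values between -0.33 (Pfkfb3, SE 0.177) and 0.07 (Slc2a4, SE 0.06). Genes of fibre type also differed between the sexes. The slow fibre genes Myh7 (-0.51), Tnni1 (-0.40) and Tnnt1 (-0.37 on the log2 scale) were lower in males, while Myh2 (0.30), a fast myosin gene, and Ckm (0.30), muscle creatine kinase, were higher. Of the 6 muscle fibre markers 5 were called for sex, 2 higher and 3 lower in males. Markers of Schwann cells, which wrap the nerves of the muscle, had a median of -0.81, against -0.02 over all genes. All 5 lay below 0, and none was called (edgeR adjusted p from 0.0726 to 0.188). They summed to 36.3 to 497 CPM in females (median 66.0) and to 33.7 to 220 CPM in males (median 45.1), and mouse 21, the female with the highest sum, also had the highest Ppp1r3b value. The adipocyte markers had a median of -0.65 for sex, with none called. In exercised WT, rested mD3AKO and exercised mD3AKO mice their highest sums were in mice 25 (296 CPM), 21 (220 CPM) and 3 (105 CPM). These mice also had the highest Ppp1r3b values of their groups. Among rested WT mice the highest sum was in mouse 20, and the highest Ppp1r3b value in mouse 1. The part of fibre, Schwann cell and adipocyte markers in the sex differences of Gys1 and Ppp1r3b was not tested.

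**Figure D3:**
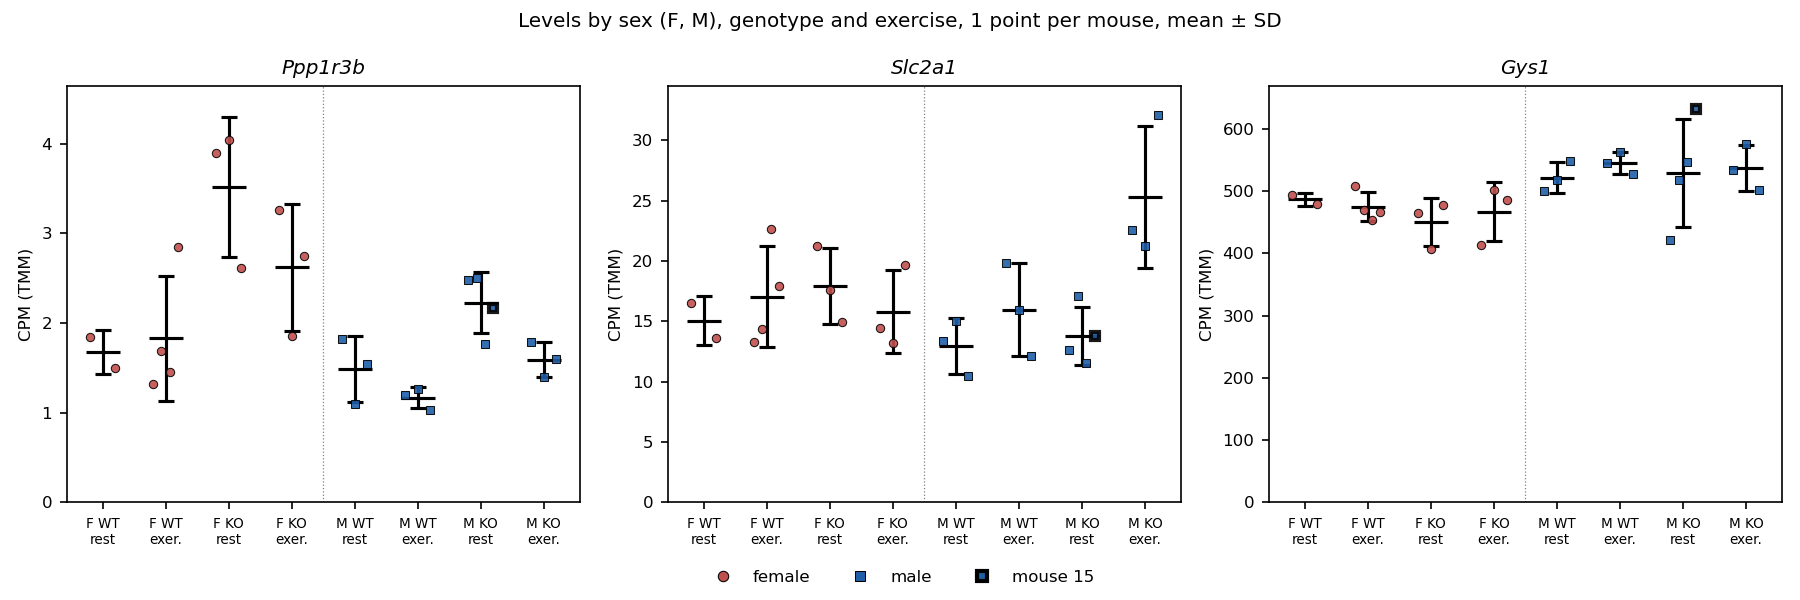
Levels of Ppp1r3b, Slc2a1 and Gys1 in CPM (linear axes from 0) in the 8 groups of sex, genotype and exercise. Each point is 1 mouse (thick outline mouse 15), and bars are the mean ± SD. The 3 exercised KO males are the highest males for Slc2a1, and female KO mice at rest hold the 2 highest Ppp1r3b values.

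The rest of the pathway was described with lists of genes around the 10, none of which holds any of them. Counts for exercise are to be read against the 10.4% of all genes called, 5.7% higher and 4.69% lower. Among 10 genes that control glycogen synthase, 1 rose with exercise and 9 were not called. A second gene, Ppp1r3d, was called with DESeq2, with sex as a term, with blocks of mouse numbers, in females alone and in 4 of 25 repeats without 1 mouse. The first was Ppp1r3g, a further targeting subunit known for a role after feeding, which was at 0 to 4 counts in rested WT libraries and at 11 to 39 in exercised ones. In mD3AKO libraries it was at 2 to 8 counts at rest and at 4 to 39 after exercise. Its log2 fold change of 2.63 (SE 0.393, edgeR adjusted p = 3e-05) rests on these few counts. It was called in WT (3.71, edgeR adjusted p = 0.000317) but not in mD3AKO mice (1.55, edgeR adjusted p = 0.0571), and the difference between these responses was not called (-2.15, SE 0.833, edgeR adjusted p = 1.00). Per kilobase it stayed far below Ppp1r3c, at 0.21 against 154 CPM per kilobase in exercised muscle. Ppp1r3a, the subunit typical of skeletal muscle, measured 369 to 560 CPM at rest and 293 to 549 CPM after exercise and was not called. So of the glycogen targeting subunits examined, Ppp1r3c and Ppp1r3g were called over both genotypes in edgeR. In mD3AKO mice alone Ppp1r3c was called with DESeq2, in males, and without mouse 2 or mouse 6.

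Of 10 arrestin and glucose-sensing genes 3 rose with exercise, against 5.7% of all genes, all of them relatives of Txnip. Arrdc2 rose from 3.11 to 12.4 CPM (median 5.51) at rest to 12.2 to 31.8 CPM (median 19.3), with a log2 fold change of 1.83 (SE 0.200, edgeR adjusted p = 2.69e-07). Arrdc3 rose from 44.6 to 61.9 CPM to 78.5 to 148 CPM (1.14, SE 0.097). Arrdc5, with 3 to 47 counts, rose by 1.02 (SE 0.186), a call lost in males alone. In mD3AKO mice its value was 0.66 (SE 0.248, edgeR adjusted p = 0.134). For exercise DESeq2 called 4 genes of this list, against 11.8% of all genes, and edgeR called 3 to 4 when 1 mouse was left out. Txnip itself, at -0.14 (95% interval -0.46 to 0.17), was not called, and single mice moved it from -0.22 (without mouse 6) to -0.066 (without mouse 12).

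Of 15 genes of GLUT4 traffic 1 rose with exercise and 14 were not called, against 5.7% of all genes higher and 10.4% called in either direction. Myo1c, a motor protein of vesicle delivery, rose from 76.7 to 94.6 CPM (median 86.5) to 89.9 to 117 CPM (median 102), with a log2 fold change of 0.25 (SE 0.049, edgeR adjusted p = 0.000765). Of 7 other glucose transporters tested 1 fell, namely Slc2a9, a urate transporter, with 12 to 53 counts (-0.51, SE 0.115). Among 17 glycolysis genes 1 rose, against 5.7% of all genes higher, namely Pgam1, with 33 to 135 counts (0.28, SE 0.082). Pgam1 is a low transcript here and has processed copies in the genome with which reads could be shared. Of 7 AMPK subunits 1 fell, Prkab1 (-0.27, SE 0.06). The calls of Myo1c, Pgam1 and Prkab1 were lost without TMM normalization and in each sex alone, that of Slc2a9 in each sex alone, and that of Pgam1 also without the filter on low counts and without mouse 14, 16, 17 or 20. Of 7 genes of glycogen synthesis, 11 of glycogen breakdown, 5 other enzymes of fructose bisphosphate metabolism and 2 other hexokinases, none was called in edgeR, and 1, Hk3, had an unadjusted p under 0.05. DESeq2 and limma with voom each called 1 of them, Hk3, as did edgeR without mouse 1, 5 or 19. The lowest p among them belonged to Hk3 (-0.67, SE 0.241, edgeR adjusted p = 0.0779), Pgm2 (0.17), Phkg2 (-0.11) and Pfkfb2 (0.08).

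For genotype none of these lists held a called gene in edgeR, in DESeq2 or in limma with voom. In edgeR an unadjusted p under 0.05 was found for 3 glycolysis genes and for 1 gene each of GLUT4 traffic, fructose bisphosphate metabolism and the AMPK subunits, against 6.23% of all genes. The lowest p of each list belonged to Aldoc (-0.80, SE 0.294, edgeR adjusted p = 0.541), Rab13 (0.26), Fbp2 (-0.49), Prkaa1 (0.11), Gys2 (-1.001), Hk3 (0.42), Pygb (-0.11), Arrdc1 (0.17), Ppp1r3g (0.51) and Slc2a10 (-0.13).

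For sex, 7 of 17 glycolysis genes were higher in males and none was lower, against 8.65% of all genes called and 5.04% higher, with a list median of 0.16 against -0.02 over all genes. Eno3, the muscle enolase, ran from 1425 to 2403 CPM (median 1811) in females and from 1672 to 3112 CPM (median 2551) in males (0.44, SE 0.101, edgeR adjusted p = 0.00812). The others were Tpi1 (0.30), Pkm (0.24), Ldha (0.31), Gpi1 (0.19), Slc16a3 (0.68) and Pfkm (0.21). Higher in males were also the kinases Pfkfb4 (0.50) and Pfkfb1 (0.44), the branching enzyme Gbe1 (0.28) and the phosphorylase kinase subunits Phkg1 (0.35) and Phkb (0.26). Ppp1cc (0.16), Prkag3 (0.40) and Rab13 (0.41) were higher as well, while Tbc1d4 (-0.36), which restrains GLUT4 vesicles, and the targeting subunit Ppp1r3d (-0.52) were lower. The muscle fibre markers also differed between the sexes, with 2 of 6 called higher and 3 lower in males. Their part in the values of these lists was not tested. Without TMM normalization the median of all genes moved to -0.12 for sex and 4.63% of all genes were called, among them 0 of the 17 glycolysis genes, and 0 genes of glycogen synthesis, of glycogen breakdown and of the AMPK subunits. Of the called genes of these lists only Pfkfb4, Tbc1d4 and Ppp1r3d were then called, so the calls for sex depend on the normalization. Mouse 15, a male with 39.6% of its counts on ribosomal RNA genes, was part of that setting. Its part in the lost calls was not tested. When 1 mouse was left out, 4 to 8 glycolysis genes were called, the fewest without mouse 20. The calls of Slc16a3 and Pfkm were lost in 17 of 25 such repeats, that of Tbc1d4 in 18 and that of Prkag3 in 14. Tbc1d4 was also lost with DESeq2 size factors and without ribosomal RNA genes, and Ppp1cc without the filter on low counts. The calls of Ldha, Pfkfb1 and Phkg1 were lost without mouse 20, that of Ppp1cc without mouse 3, 16 or 20 and that of Phkb without mouse 3, 14, 17, 18, 20 or 21.

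**Figure D4:**
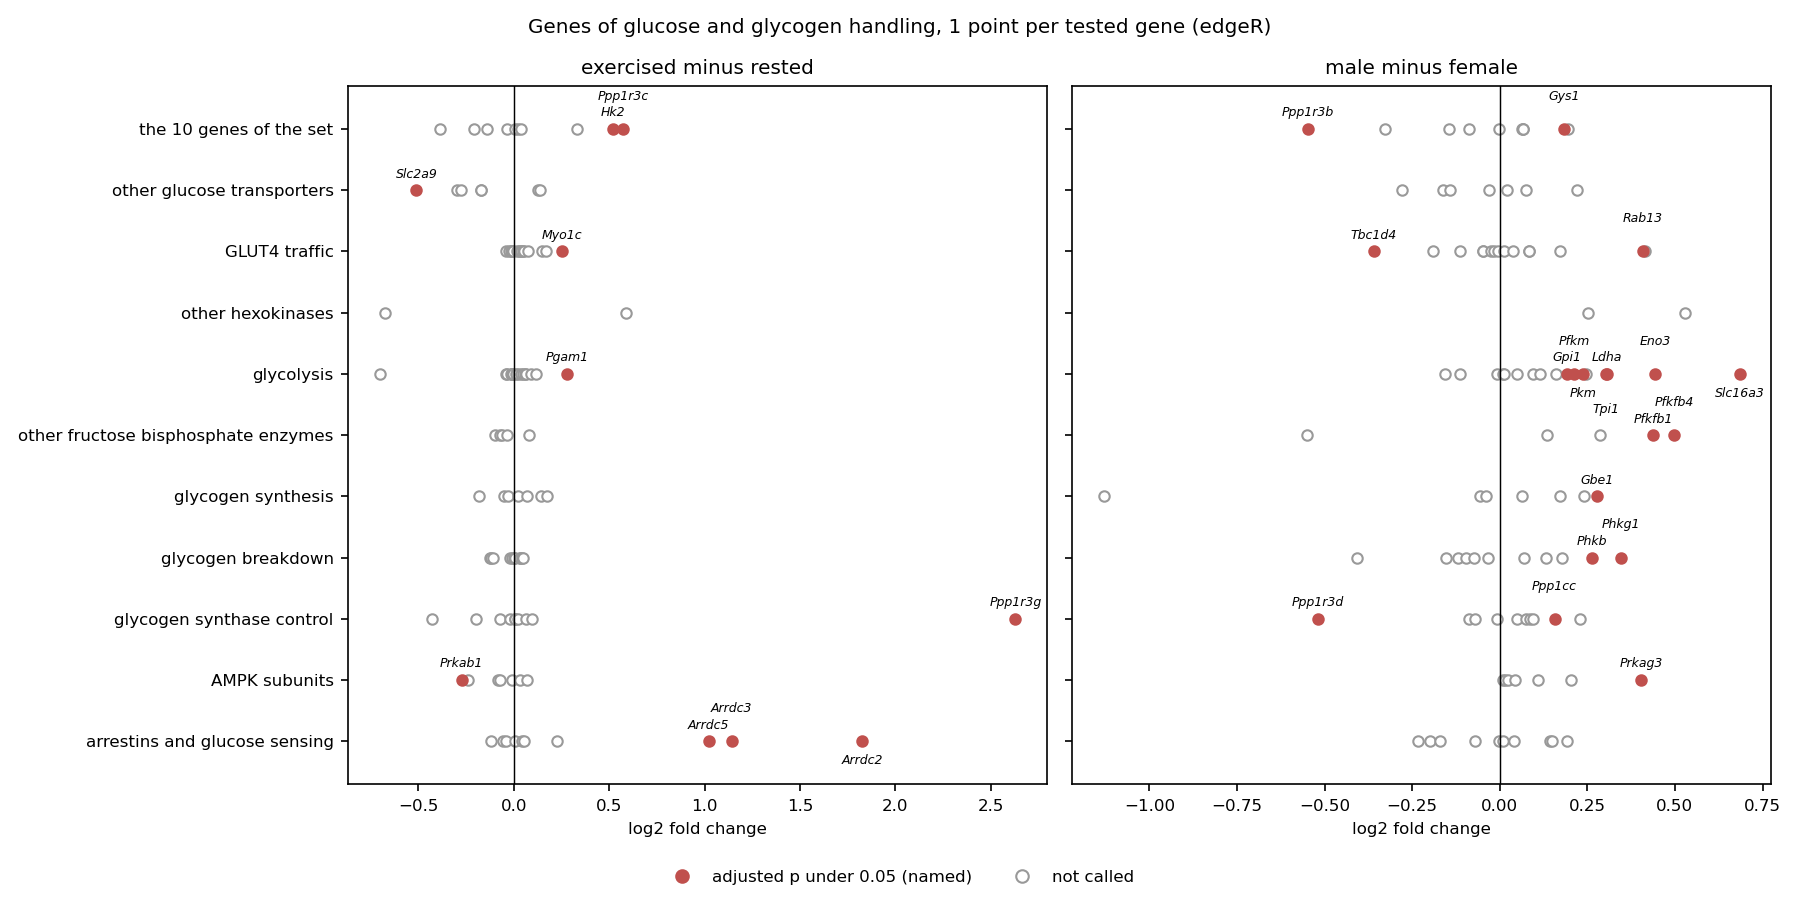
Log2 fold changes with exercise (left) and sex (right) of the 10 genes and of the tested genes of 10 lists around them, 1 point per gene. Red named points passed an adjusted p of 0.05 in edgeR. The 2 largest changes with exercise are Ppp1r3g (2.63) and Arrdc2 (1.83), and the glycolysis list holds 7 called genes for sex, all higher in males.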

How the data were processed

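RNA of 25 soleus muscles was analysed, 1 library per mouse. The authors removed ribosomal RNA, made stranded libraries of the remaining total RNA and read them as 75-base paired ends. Reads were counted on mm10 with GENCODE gene models, and the submitters' processing notes name FastQC 0.11.5, STAR 2.5.3a and featureCounts 1.5.3. The values deposited by the authors are counts per gene and library, neither normalized nor filtered. Each library's group was taken from its sample label, and 0 columns belonged to other samples. The 67 pairs of libraries of 1 group all differed by more than counting noise (lowest chi-square per gene 14.1).

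Comparisons used the quasi-likelihood F test of edgeR 4.0.16 (with limma 3.58.1 in R 4.3.3) with TMM normalization and 1 mean per group, on the 16340 genes kept by filterByExpr (minimum count 10, minimum total 15). Main effects weighted the levels of the other factor equally. Sex was tested in a fit of 8 groups. All 16340 genes entered the Benjamini-Hochberg adjustment, and an adjusted p under 0.05 made a call. Standard errors were derived from the log2 fold change and F, with 95% intervals from the t distribution. The scripts were tested on simulated counts. Alternatives were DESeq2 1.42.0, its size factors, limma with voom, no TMM, no filter, sex or blocks of mouse numbers as a term, each sex alone, ribosomal RNA genes left out and each mouse left out.

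The 10 genes, the lists around them and the markers were chosen with earlier results of these data known. Beside the 10, called genes of each list were named, or the gene with the lowest p where none was called, and for each of the 10 the 3 other genes with the highest Pearson correlation, of which 1 value is not reported here. Aldoa was left out of the glycolysis list because 2 genes carry this symbol. Exon lengths come from the deposited table and promoters from RefSeq on GRCm38.p6.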

Additional observations from a re-analysis of the deposited data

Results flagged for a closer look

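In 40 combinations of gene and group, 2 held a mouse far from the rest of its group, where chance marks about 1 in 20 groups (5%). Slc2a4 in exercised WT mice reached 585 CPM in mouse 16, against 522 CPM in the next mouse. Ppp1r3b in exercised WT mice reached 2.85 CPM in mouse 25, against 1.69 CPM in the next mouse. Without mouse 25 the genotype difference of Ppp1r3b was 0.75 (edgeR adjusted p = 0.0292), against 0.64 (edgeR adjusted p = 0.168) with it. Leaving out any other single mouse gave no call for this difference.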

How the results depend on the processing

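No paired analysis was possible because each mouse number belongs to 1 mouse and is shared by no 2 groups. The rises of Hk2 and Ppp1r3c with exercise were called under all alternatives run except for Ppp1r3c in females alone, which left 1 called gene. Of the 10 genes, exercise in WT gave 0 called in males alone (1.29% of all genes) and 0 in females alone (1.1%), with values of 0.497 and 0.554 for Hk2 and 0.82 and 0.57 for Ppp1r3c. In mD3AKO mice it gave 2 with DESeq2 (Ppp1r3c added, 7.41% of all genes), 3 in males alone (Slc2a1 added, 3.92%), 0 in females alone (1.09%), and 1 to 2 when 1 mouse was left out, the second being Ppp1r3c without mouse 2 or mouse 6. For genotype 1 gene, Ppp1r3b, was called with DESeq2 (0.496%), with sex as a term (0.441%) and with blocks of mouse numbers (0.594%), and 0 to 1 when 1 mouse was left out. For sex 1 gene was called without TMM (4.63% of all genes) and 1 without the filter (3.3%; Gys1 lost in both), and 1 to 3 when 1 mouse was left out, the third being Pygm without mouse 7. The cause of these changes was not tested.

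Values that changed sign were all close to 0 or came from 1 sex alone. In males alone the exercise values were 0.0105 for Hk1 and -0.024 for Slc2a4, and the difference of the genotypes' responses was 0.033 for Hk1, 0.029 for Hk2, -0.016 for Slc2a4, -0.0397 for Gys1 and 0.014 for Pygm, whose genotype value there was 0.031. In females alone exercise gave -0.0047 for Slc2a1 and -0.016 for Pygm, and the difference of responses was -0.36 for Slc2a1. Without TMM the genotype value of Hk1 was -0.0015 and the sex values were -0.041 for Hk2, -0.041 for Slc2a4 and -0.039 for Ppp1r3c. The sex value of Slc2a1 was 0.0062 with DESeq2 size factors, 0.0063 with DESeq2, 0.0086 without the filter and 0.0083 without ribosomal RNA genes. Leaving out 1 mouse gave ranges across 0 for exercise in Hk1 (-0.061 to 0.0003021), Gys1 (-0.0196 to 0.041) and Pygm (-0.019 to 0.058), for genotype in Hk1 (-0.011 to 0.0401), Gys1 (-0.059 to 0.0037) and Pygm (-0.053 to 0.0195), and for sex in Slc2a1 (-0.055 to 0.044). For the difference of responses they were -0.078 to 0.036 for Hk2, -0.0396 to 0.23 for Slc2a1, -0.023 to 0.068 for Slc2a4, -0.018 to 0.11 for Gys1 and -0.091 to 0.048 for Pygm.

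Of the 10 genes Ppp1r3b had the fewest counts, as few as 31 in a library. The groups hold 5 to 7 mice, and sets of 1 sex hold 2 to 4 mice a group.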

Other observations

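For each of the 10 genes, the genes whose log2 CPM followed it most closely over the 25 libraries were listed as a description, since these libraries share group, sex and depth. Pygm was closest to Pfkm (Pearson r = 0.95), which encodes muscle phosphofructokinase, then to Ckm (0.90) and Gpi1 (0.88). Hk2 was closest to Zbtb16 (0.93), Ppara (0.92) and Lpin1 (0.92), genes of transcription and lipid metabolism, and Ppp1r3c to Sdc4 (0.89), Gtf2b (0.84) and Nfil3 (0.84). Gys1 was closest to Ank (0.93), Rpl3l (0.91) and Mdh2 (0.87). For Slc2a4 the values were 0.82 with St3gal3 and 0.78 with Rilpl1. Slc2a1 followed Tiam2 (0.82), Xirp1 (0.82) and Vcl (0.78), of which Xirp1 and Vcl belong to the attachment of the contractile apparatus. Hk1 was closest to Crtap (0.90), Col5a3 (0.89) and Kbtbd11 (0.89), the first 2 being genes of collagen. For Pfkfb3 the closest genes were Klhdc8b (0.78), A630072L19Rik (0.76) and Ttc28 (0.76), for Ppp1r3b Cntrl (0.79), Foxp1 (0.75) and Myh8 (0.72), and for Txnip Wnk3 (0.72), Zbed3 (0.70) and Arhgap6 (0.68). Without mouse 15 the value for Gys1 and Mdh2 was 0.84.

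Within groups, after each group's mean was taken out, Gys1 and Pygm varied together (r = 0.77 over 25 libraries, and 0.88 without mouse 15), as did Gys1 and Slc2a4 (0.70) and Pygm and Slc2a4 (0.68). Gys1 and Ppp1r3b varied in opposite directions (-0.68). Sex was not removed from these values, and it differs for both Gys1 and Ppp1r3b.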
